A study of Mus musculus with 12 samples.

Results

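The radial glia marker genes described here are 10 genes, taken by symbol from the 23352 gene rows of the authors' deposited table: Nes, Vim, Fabp7, Slc1a3, Hopx, Prom1, Mfge8, Pdpn, Ednrb and Fam107a. All 10 were found, each in 1 row. RNA came from dissected neocortex of embryonic day 16 mice of 2 lines, named in the labels Nfib tm1Rmg and Nfia tm1Rmg, both on C57BL/6. The Nfib line had 4 homozygous knockout and 2 wild-type libraries, and the Nfia line had 4 libraries labelled homozygous knockout and 2 wild-type libraries. No Cre driver or treatment is given for either line, and whether each library stands for its own embryo or litter is not stated in the labels. Each value is the authors' weighted average FPKM (fragments scaled for transcript length and library size) over a group, so there is 1 value per gene and group with no spread between libraries, and the depth of sequencing is unknown.

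Radial glia are the progenitors of the embryonic cortex. Their cell bodies line the ventricle, their fibres reach the pial surface and guide migrating neurons, and they divide to give neurons directly or through intermediate progenitors before turning to astrocyte production. They are recognised by intermediate filaments, by glial metabolic and transport proteins, and by proteins of the apical membrane and the cell surface. NFIA and NFIB are transcription factors of the nuclear factor I family, which bind DNA at TTGGC half-sites, and in this tissue they act on the step from progenitor to neuron and glia. These genes are not exclusive to radial glia: Vim is also made by vessel and meningeal cells and Pdpn by choroid plexus and meninges. In bulk tissue, fewer radial glia and less RNA per cell cannot be told apart.

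The promoters of 4 genes are shown because they bear on the family whose genes were targeted: Mfge8 and Prom1 are the members past the threshold in the comparisons. Fabp7 and Hopx hold the longest NFI-like match, of a form searched only after the windows had been read. Each window runs from 250 bases before to 50 bases after a RefSeq start on GRCm38.p6, which is not the mm9 build of the expression table. Capitals mark TTGGC or its reverse complement GCCAA.
Mfge8, chr7:79149011-79149310, minus strand: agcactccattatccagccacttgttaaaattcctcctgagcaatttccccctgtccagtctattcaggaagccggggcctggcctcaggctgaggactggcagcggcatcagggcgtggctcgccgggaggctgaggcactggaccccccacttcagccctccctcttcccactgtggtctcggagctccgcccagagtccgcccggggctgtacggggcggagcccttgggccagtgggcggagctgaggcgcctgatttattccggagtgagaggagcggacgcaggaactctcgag
Prom1, chr5:44101687-44101986, minus strand: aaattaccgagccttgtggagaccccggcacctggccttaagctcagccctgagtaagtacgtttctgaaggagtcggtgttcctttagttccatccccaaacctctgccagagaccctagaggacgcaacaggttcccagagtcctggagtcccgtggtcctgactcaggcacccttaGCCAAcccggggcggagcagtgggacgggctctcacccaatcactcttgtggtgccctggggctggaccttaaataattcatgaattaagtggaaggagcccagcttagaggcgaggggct
Fabp7, chr10:57784673-57784972, plus strand: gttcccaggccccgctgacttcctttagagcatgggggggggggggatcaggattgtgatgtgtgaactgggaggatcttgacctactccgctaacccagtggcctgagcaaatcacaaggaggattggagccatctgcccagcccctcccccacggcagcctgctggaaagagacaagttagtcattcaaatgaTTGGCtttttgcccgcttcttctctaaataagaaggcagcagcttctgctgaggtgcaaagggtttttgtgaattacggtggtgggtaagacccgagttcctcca
Hopx, chr5:77115074-77115373, minus strand: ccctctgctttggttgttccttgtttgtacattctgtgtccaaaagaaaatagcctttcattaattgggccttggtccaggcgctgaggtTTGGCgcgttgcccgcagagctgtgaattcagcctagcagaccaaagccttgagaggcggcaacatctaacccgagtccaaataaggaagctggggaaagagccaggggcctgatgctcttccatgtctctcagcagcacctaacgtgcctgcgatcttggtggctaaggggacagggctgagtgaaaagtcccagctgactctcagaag

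All 10 genes matched the RefSeq promoter table, with 14 windows between them, since Prom1, Hopx and Fam107a have more than 1 annotated start. TTGGC on either strand stood in 8 of the 14 windows, which is 57.1%, against 46.7% of all 32851 windows of the same length. Those 8 include 2 nearly identical Fam107a windows. Per gene, 7 of 10 held it in at least 1 window, against 50.4% of 27025 genes, so the half-site is common in promoters of any kind. No window held the full palindrome, TTGGC and then GCCAA after any 5 bases between them, which 12 of all windows held. A shorter form, TTGGC and then GCC after any 5 bases, which overlaps the half-site matches and was searched after the windows had been read, was found in 2 of 14, those of Fabp7 and Hopx, and in 1.38% of all windows. In the Fabp7 window it starts at position -55 from the annotated start, and in the Hopx window at -160. The single Prom1 match lies on the opposite strand at -71, and the windows of Mfge8, Nes and Slc1a3 hold no TTGGC. These are matches of letters in these windows only. As background, NFI proteins have been shown to bind the human FABP7 promoter in malignant glioma cells.

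The targeted genes and the sex of the embryos set the frame for both comparisons. Nfib transcript stood at 9.12 FPKM in the Nfib knockouts and 134 FPKM in their wild types, which the authors' deposited table gives as a log2 fold of -3.86 (q = 0.00207). Nfia stood at 28.2 FPKM in the group labelled Nfia knockout and 33.7 FPKM in its wild types, which the authors' deposited table gives as a log2 fold of -0.27, not past the threshold (q = 0.477). This value covers the whole gene and does not check the label. Each gene was also read in the other line. Nfia stood at 54.4 FPKM in the Nfib knockouts and 24.3 FPKM in their wild types (log2 fold 1.18, q = 0.00207, authors' deposited table). Nfib stood at 142 FPKM in the group labelled Nfia knockout and 190 FPKM in its wild types (log2 fold -0.43, q = 0.117, authors' deposited table), not past the threshold. The growth protocol in the labels names the Nfia allele for both lines, so the lines are as given by the titles and strain fields, and the loss of Nfib transcript is the check that bears on the Nfib line. Sex-linked transcripts moved with genotype in both lines: Xist, made in females from the inactive X chromosome, was at 86.0 FPKM in the Nfib knockouts and 0.207 FPKM in their wild types, and at 77.0 FPKM in the group labelled Nfia knockout and 161 FPKM in its wild types. The part of sex in the values below was not tested.

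Of the 10 radial glia genes, 2 passed the threshold of q 0.05 in the Nfib comparison and 1 in the Nfia comparison. Mfge8 fell in both lines, Prom1 rose in the Nfib knockouts, and the other 8 passed in neither. In the Nfib comparison all 10 were tested, of which 1 was higher, 1 was lower and 8 did not pass, with 5 reaching an unadjusted p under 0.05. Over all 13729 genes tested there, 2.13% were called higher, 3.26% lower and 5.39% in either direction, and 13.4% had an unadjusted p under 0.05. In the Nfia comparison 9 were tested, of which 0 were higher, 1 was lower and 8 did not pass, with 3 reaching an unadjusted p under 0.05, and the background over 13736 genes was 2.69% higher, 1.1% lower and 3.79% in either direction, with 10.1% at an unadjusted p under 0.05, in the authors' deposited table. The median log2 fold of the members tested was -0.017 in the Nfib comparison, where all tested genes had -0.0049, and -0.074 in the Nfia comparison, where all tested genes had -0.0033. With this few genes, a share is moved far by a single member, and no test of the group was made. The calls are the authors' own, from their p-values and q-values. The error quoted for a log2 fold below is the one its deposited p-value implies, and its interval is at 95%.

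**Figure D1:**
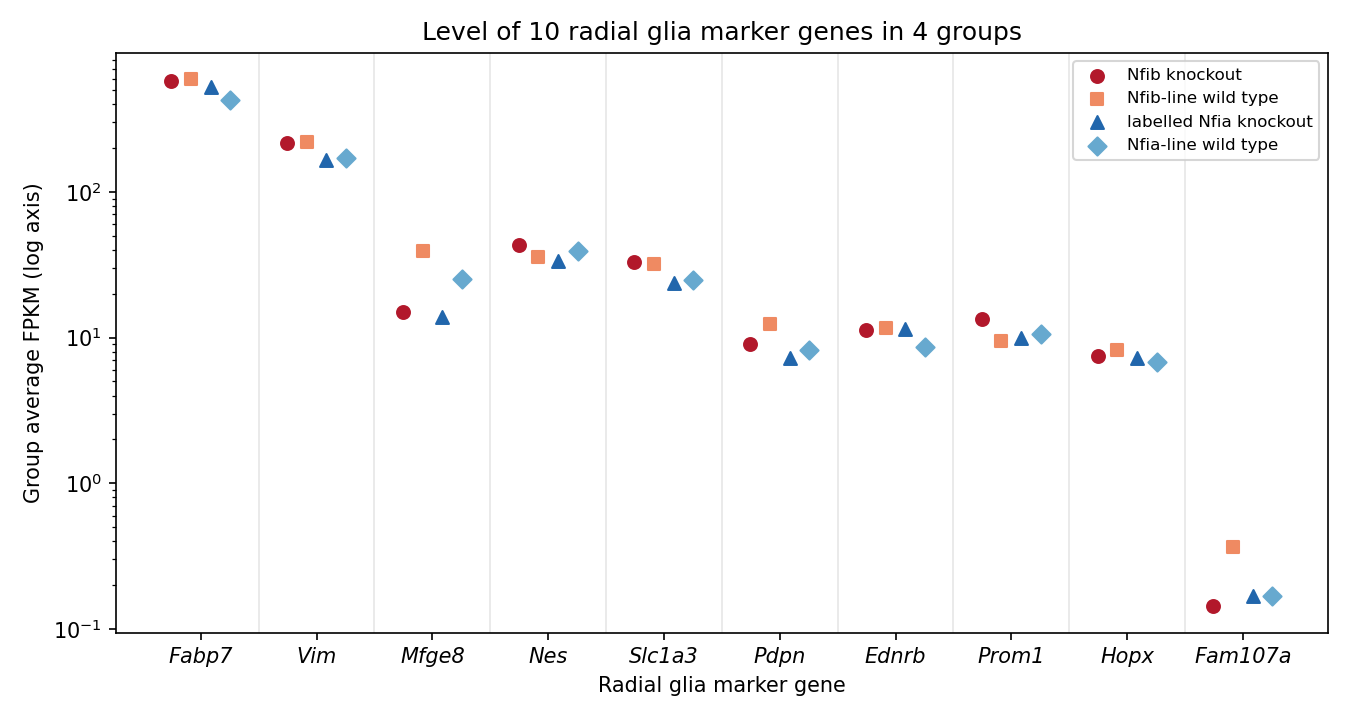
The plot shows the authors' average FPKM (log axis) of each radial glia marker gene in the Nfib knockouts, their wild types, the group labelled Nfia knockout and its wild types, 1 point per group with no error bar because the table holds no value per library. Mfge8 is at 14.9 and 13.9 FPKM in both knockout groups, under the 39.3 and 25.0 FPKM of their wild types, while Fabp7 lies between 427 and 592 FPKM and Fam107a is under 1 FPKM in every group.

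The cytoskeletal members were Nes and Vim, which encode the intermediate filaments nestin and vimentin of radial fibres. Nes averaged 43.3 FPKM in the Nfib knockouts and 35.5 FPKM in their wild types. In the other line it averaged 33.6 FPKM in the group labelled Nfia knockout and 39.3 FPKM in its wild types. The highest and the lowest value of Nes thus both belonged to a knockout group, with the wild types of both lines in between. Its log2 fold was 0.30 with an interval of 0.018 to 0.59 (q = 0.284) in the Nfib comparison and -0.24 with an interval of -0.50 to 0.021 (q = 0.549) in the Nfia comparison of the authors' deposited table. Neither passed the threshold, although the unadjusted p of the Nfib comparison was 0.0324.

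Vim was the second most abundant member, at 218 FPKM in the Nfib knockouts and 219 FPKM in their wild types, and at 166 FPKM in the group labelled Nfia knockout and 170.3 FPKM in its wild types. Within each line the groups lay close together, and the Nfib line lay above the Nfia line. The log2 fold of 0.0095 in the Nfib comparison (q = 0.998, authors' deposited table) had an interval of -0.29 to 0.31, so a change of up to 1.24-fold upward or to 0.820 of the wild-type level is within it. In the Nfia comparison it was -0.051 with an interval of -0.31 to 0.21 (q = 0.999, authors' deposited table).

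The metabolic and transport members were Fabp7, the brain lipid-binding protein that carries fatty acids, and Slc1a3, the glutamate transporter GLAST. Fabp7 had the highest level of the group, with 580.3 FPKM in the Nfib knockouts and 592 FPKM in their wild types, and 525 FPKM in the group labelled Nfia knockout and 427 FPKM in its wild types. It ranked 95th of all rows in the Nfib-line wild types and 123rd in the Nfia-line wild types. The Nfia-line wild types were the lowest of the 4 groups. The log2 fold was -0.0068 with an interval of -0.30 to 0.28 (q = 0.998) in the Nfib comparison and 0.29 with an interval of 0.024 to 0.55 (q = 0.361, unadjusted p = 0.0295) in the Nfia comparison of the authors' deposited table.

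Slc1a3 averaged 33.0 FPKM in the Nfib knockouts and 32.0 FPKM in their wild types, and 23.9 FPKM in the group labelled Nfia knockout and 24.9 FPKM in its wild types. As with Vim, the separation ran between the lines and not between genotypes. Its log2 folds were 0.066 with an interval of -0.22 to 0.36 (q = 0.994) in the Nfib comparison and -0.074 with an interval of -0.35 to 0.20 (q = 0.999) in the Nfia comparison of the authors' deposited table.

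Prom1 encodes prominin-1 (CD133), a membrane protein of apical protrusions facing the ventricle. It averaged 13.4 FPKM in the Nfib knockouts and 9.40 FPKM in their wild types, and 9.90 FPKM in the group labelled Nfia knockout and 10.5 FPKM in its wild types. The Nfib knockouts were the highest group, and the other 3 groups lay close together. Prom1 rose 1.45-fold in the Nfib knockouts with an interval of 1.15 to 1.82, which is 0.53 on the log2 scale with an implied error of 0.17 (q = 0.0272, authors' deposited table). In the Nfia comparison its log2 fold was -0.097 with an interval of -0.41 to 0.22 (q = 0.999) in the authors' deposited table. The rise did not pass a stricter threshold of q 0.01. Against the Nfia-line wild types its log2 fold was 0.35, computed from group FPKM.

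Mfge8 encodes a secreted protein that bridges exposed phosphatidylserine to integrins on phagocytic and other cells. It averaged 14.9 FPKM in the Nfib knockouts and 39.3 FPKM in their wild types, and 13.9 FPKM in the group labelled Nfia knockout and 25.0 FPKM in its wild types. Both knockout groups lay under both wild-type groups, and the knockout groups were closer to each other, at a ratio of 1.07 of Nfib to Nfia knockouts, than the wild types were, at a ratio of 1.57. Going by the authors' deposited table, Mfge8 fell by 61.6% in the Nfib knockouts (log2 fold -1.38, q = 0.00207) and fell by 45.0% in the group labelled Nfia knockout (log2 fold -0.86, q = 0.00286). Both p-values sit at the smallest value the table holds, 5e-05, so the implied errors of 0.34 and 0.21 are upper limits, and the intervals of -2.05 to -0.71 and -1.28 to -0.45 are at their widest. Computed from group FPKM against the other line's wild types, the log2 fold came to -0.75 for the Nfib knockouts and -1.49 for the group labelled Nfia knockout, so the order of the sizes turns round with the choice of wild types while both stay below 0. Being called lower in both comparisons was shared by 52 of 13554 genes tested in both, 0.384%.

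Pdpn, the mucin-like membrane glycoprotein podoplanin, averaged 9.04 FPKM in the Nfib knockouts and 12.3 FPKM in their wild types. It averaged 7.19 FPKM in the group labelled Nfia knockout and 8.20 FPKM in its wild types. Each knockout group was below its own wild types, but the Nfib knockouts were above the Nfia-line wild types. The log2 folds were -0.43 with an interval of -0.81 to -0.046 (q = 0.261, unadjusted p = 0.0283) in the Nfib comparison and -0.20 with an interval of -0.57 to 0.17 (q = 0.930) in the Nfia comparison of the authors' deposited table. Against the Nfia-line wild types the log2 fold of the Nfib knockouts was 0.14, the opposite sign.

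Ednrb, the type B endothelin receptor, averaged 11.2 FPKM in the Nfib knockouts and 11.6 FPKM in their wild types, and 11.4 FPKM in the group labelled Nfia knockout and 8.55 FPKM in its wild types. The Nfia-line wild types were the lowest of these 4 averages, as for Fabp7. The log2 fold was -0.026 with an interval of -0.36 to 0.31 (q = 0.998) in the Nfib comparison and 0.40 with an interval of 0.083 to 0.71 (q = 0.148, unadjusted p = 0.0083) in the Nfia comparison of the authors' deposited table. Against the Nfib-line wild types the value for the group labelled Nfia knockout was -0.033.

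Hopx and Fam107a are known as markers of outer radial glia in human cortex, a progenitor class that is scarce in mice. Hopx, an atypical homeodomain protein, averaged 7.49 FPKM in the Nfib knockouts and 8.28 FPKM in their wild types, and 7.25 FPKM in the group labelled Nfia knockout and 6.76 FPKM in its wild types. Its log2 folds were -0.13 with an interval of -0.59 to 0.33 (q = 0.988) and 0.088 with an interval of -0.34 to 0.52 (q = 0.999) in the Nfib and the Nfia comparison of the authors' deposited table. The 4 averages of Hopx spanned a narrow range. Fam107a was near the floor of detection, at 0.143 FPKM in the Nfib knockouts and 0.365 FPKM in their wild types, and 0.168 FPKM in the group labelled Nfia knockout and 0.169 FPKM in its wild types. It was not tested in the Nfia comparison, and its Nfib comparison gave -1.32 on the log2 scale, which did not pass (q = 0.111, authors' deposited table). Computed from group FPKM, that fold was -0.26 with 1 FPKM added to both averages and -0.94 with 0.1 FPKM added. Against the Nfia-line wild types, also with 0.1 FPKM added, it was -0.15.

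**Figure D2:**
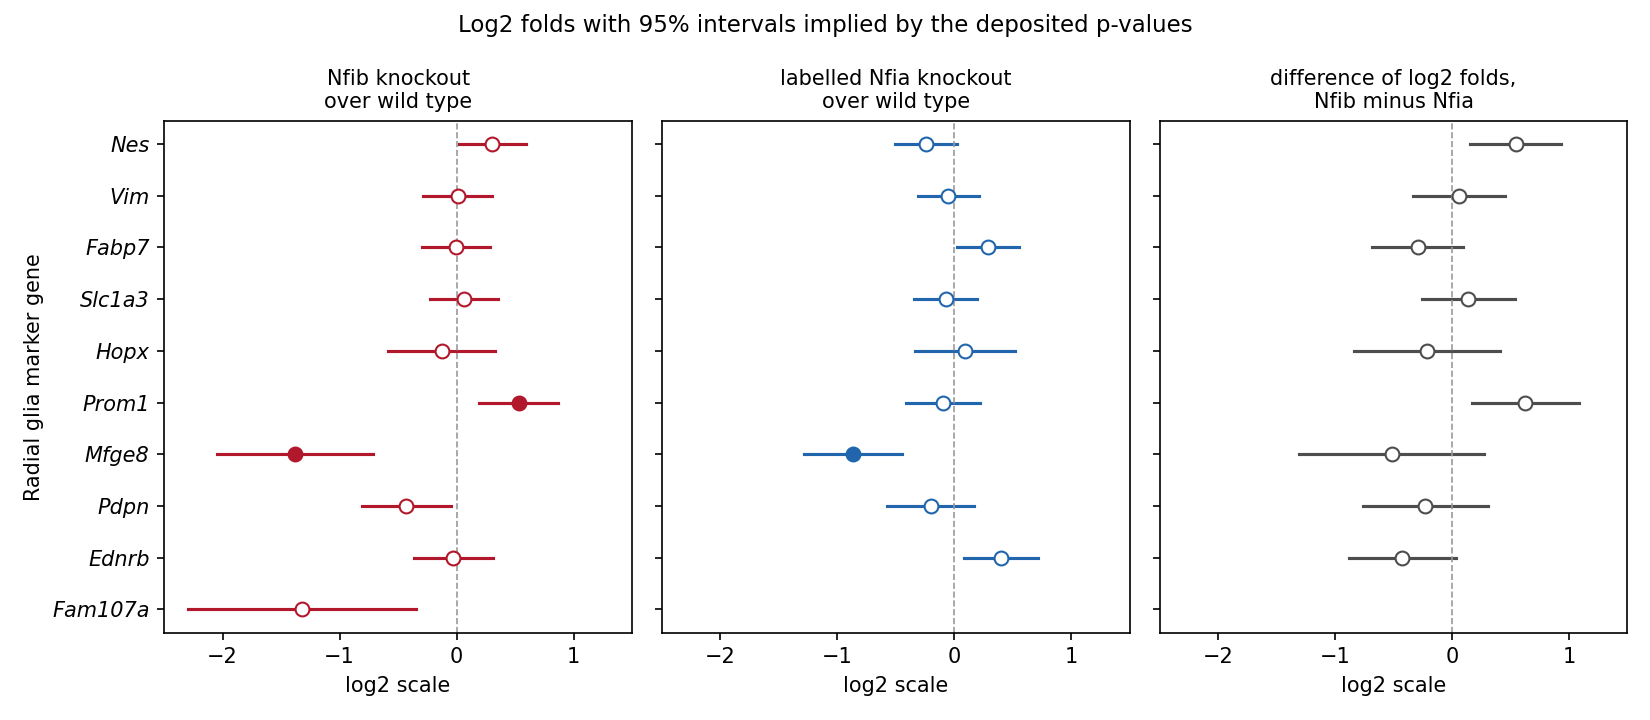
The plot gives, for each radial glia marker gene, the log2 fold of the Nfib knockouts over their wild types (left), of the group labelled Nfia knockout over its wild types (middle) and the difference of both, Nfib minus Nfia (right), with 95% intervals implied by the deposited p-values as bars. Filled points pass 0.05 after adjustment over all genes tested: Mfge8 in both comparisons at -1.38 and -0.86, Prom1 in the Nfib comparison at 0.53, and none of the differences. Fam107a has no point where it was not tested.

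Whether the 2 lines differed in their response was tested for every gene with folds in both comparisons, with an approximate test built on the implied errors. Among the 9 radial glia genes with a value, 0 passed an adjusted p of 0.05 and 2 had an unadjusted p under 0.05, beside 3.77% and 12.4% of 13554 genes. Those 2 were Prom1 and Nes. The log2 fold of Prom1 was higher in the Nfib than in the Nfia comparison by 0.63 (interval 0.17 to 1.09, Benjamini-Hochberg adjusted p = 0.125 from the approximate test on the authors' deposited p-values). For Nes the difference was 0.55 (interval 0.16 to 0.94, adjusted p = 0.109 from the same test on the authors' deposited p-values). For Mfge8 it was -0.52 with an interval of -1.30 to 0.27 (adjusted p = 0.756 from the same test on the authors' deposited p-values). Both of its deposited p-values sit at the smallest value held, 5e-05, so its errors are upper limits. The Mfge8 interval is therefore at its widest and its adjusted p may be too large. The test cannot decide for this gene, and neither an equal fall nor a larger one in the Nfib line is shown. Of the others, the interval of Vim reached from -0.33 to 0.45 and that of Hopx from -0.84 to 0.41, and these differences are bounded no more tightly than that.

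The wild types of the lines were not alike for these genes. Of the 9 members at 1 FPKM or more, 7 were higher in the Nfib-line than in the Nfia-line wild types, where 54.4% of 12409 genes were, and the median log2 ratio of Nfib-line to Nfia-line wild types was 0.36 for the members and 0.020 for all genes. The ratios ran from 0.895 for Prom1 to 1.57 for Mfge8. At least 1.5-fold higher in the Nfib-line wild types were 2 members, Mfge8 and Pdpn, beside 3.47% of genes. Among the knockouts, 8 of 9 members were higher in the Nfib knockouts than in the group labelled Nfia knockout, where 48.3% of 12389 genes were. The median log2 ratio was 0.33 for the members and -0.0059 for all genes. Not every member kept its direction. The ratio of Nfib to Nfia line went from 0.903 in wild types to 1.29 in knockouts for Nes. It went from 0.895 to 1.35 for Prom1 and from 1.36 to 0.989 for Ednrb. With 1 average per group these ratios carry no test. Line, sex, litter and library preparation cannot be told apart in them. Xist stood at 0.207 FPKM in the Nfib-line and 161 FPKM in the Nfia-line wild types. The Y-linked gene Ddx3y stood at 11.5 FPKM in the Nfib-line and 0.0330 FPKM in the Nfia-line wild types.

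**Figure D3:**
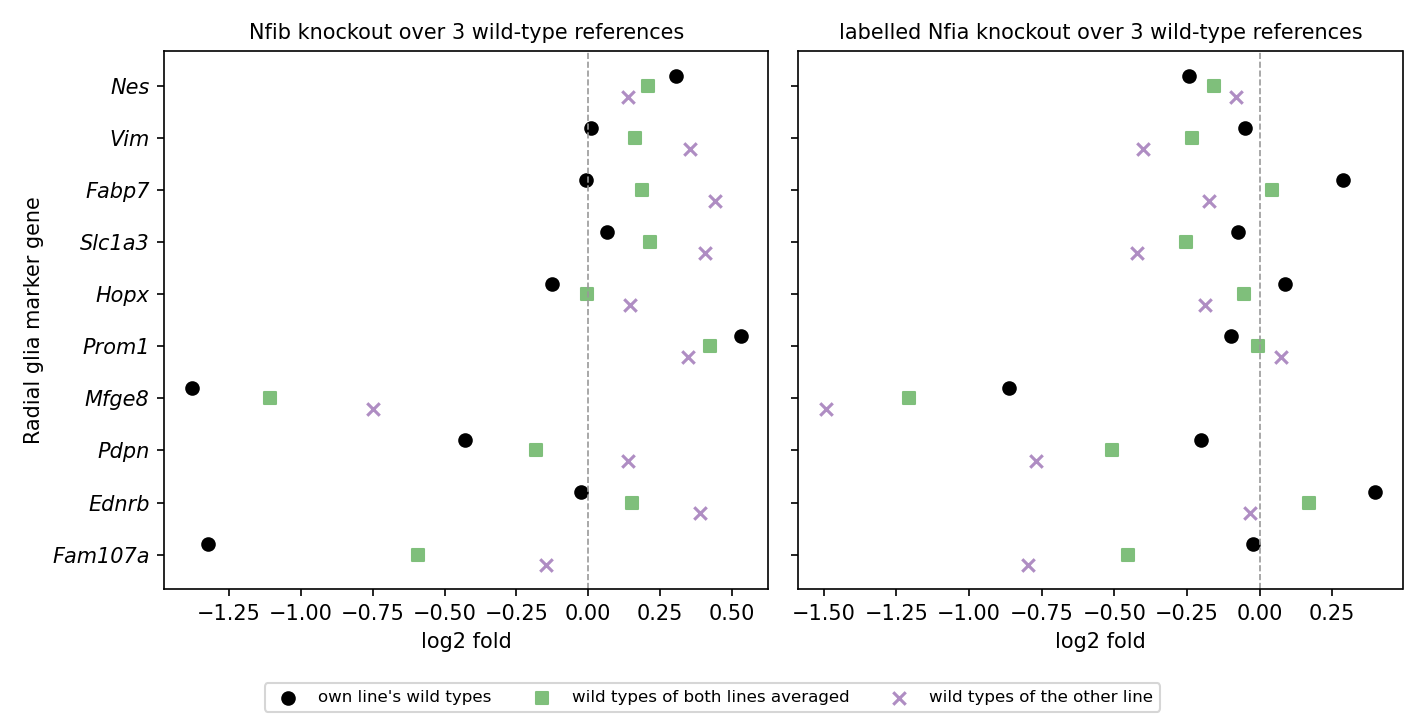
The plot shows the log2 fold of the Nfib knockouts (left) and of the group labelled Nfia knockout (right) for each radial glia marker gene over the wild types of its own line (circles, as deposited), of both lines averaged (squares) and of the other line (crosses), computed from group FPKM with 0.1 added for the squares and crosses. Mfge8 is below 0 with every choice, between -1.38 and -0.75 on the left and between -1.49 and -0.86 on the right, while Fabp7, Hopx, Pdpn and Ednrb on the left and Fabp7, Hopx, Prom1 and Ednrb on the right lie on both sides of 0.

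Other genes of radial glia were counted from lists that do not include the 10. Of 20 other radial glia and ventricular zone genes, 5 were higher, 1 lower and 14 not past the threshold in the Nfib comparison. There, 10 had an unadjusted p under 0.05, and the median log2 fold was 0.27. Over all genes tested in that comparison, 2.13% were called higher, 3.26% lower, and 13.4% had an unadjusted p under 0.05. In the Nfia comparison 0 were higher, 1 lower and 19 not past, with 3 at an unadjusted p under 0.05 and a median of -0.061. The shares over all genes tested there were 2.69% higher, 1.1% lower and 10.1% at an unadjusted p under 0.05. The Nfib median of this list stayed above 0 against each choice of wild types, at 0.42 with those of the Nfia line. The Nfib median of the 9 members at 1 FPKM or more did depend on that choice. It was -0.0068 with their own line's wild types, 0.16 with both lines averaged and 0.35 with the Nfia-line wild types. Gli3, the Hedgehog-pathway transcription factor that acts mainly as a repressor in dorsal forebrain, was at 13.1 FPKM in the Nfib knockouts and 6.71 FPKM in their wild types (log2 fold 0.98, q = 0.00207, authors' deposited table). Sox21 (log2 fold 0.87) and Id4 (log2 fold 0.87), transcriptional regulators of progenitors, also rose in the Nfib comparison of the authors' deposited table. Lhx2, a LIM homeobox factor of cortical progenitors, was lower in both comparisons, the log2 fold being -0.46 for Nfib (q = 0.0357) and -0.65 for Nfia (q = 0.00286, authors' deposited table). The remaining risers, Pax6 and Ddah1, with log2 folds of 0.63 and 0.47 per the authors' deposited table, lie outside the rule for named genes and were chosen after their values were seen.

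Of 9 further genes described in human outer radial glia, 0 were higher, 2 lower and 7 not past the threshold in the Nfib comparison. In the Nfia comparison 1 was higher, 1 lower and 7 not past. In each comparison 5 had an unadjusted p under 0.05, beside 13.4% of all tested genes in the Nfib and 10.1% in the Nfia comparison. Over all tested genes, 5.39% were called in the Nfib and 3.79% in the Nfia comparison. Tnc, the matrix glycoprotein tenascin-C, was at 11.3 FPKM in the Nfib knockouts and 37.8 FPKM in their wild types, and at 11.5 FPKM in the group labelled Nfia knockout and 25.2 FPKM in its wild types. Like Mfge8, it had both knockout averages close together and below both wild types, and it was called lower in both comparisons (q = 0.00207 and q = 0.00286, authors' deposited table). Lifr, the leukaemia inhibitory factor receptor, fell in the Nfib comparison (log2 fold -0.79, q = 0.00676, authors' deposited table), and the monooxygenase-related gene Moxd1 rose to 1.17 FPKM in the group labelled Nfia knockout, against 0.582 FPKM in its wild types (q = 0.0248, authors' deposited table).

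The partners and relatives of the members were counted in the same way. Of all tested genes, 5.39% were called in the Nfib and 3.79% in the Nfia comparison. An unadjusted p under 0.05 was held by 13.4% and 10.1% of them. Of 4 integrin genes whose products bind Mfge8, 3 were tested in the Nfib comparison and 4 in the Nfia comparison with 0 past the threshold in each (1 and 0 at an unadjusted p under 0.05), and Itgb5 had the smallest p (log2 fold -0.55 in the Nfib comparison, q = 0.145, authors' deposited table). Of 6 endothelin system genes around Ednrb 4 were tested in each comparison and 0 passed, with 0 in the Nfib and 1 in the Nfia comparison at an unadjusted p under 0.05. The ligand gene Edn1 had a log2 fold of 1.14 in the Nfia comparison (q = 0.120, unadjusted p = 0.0062, in the authors' deposited table), at 0.498 FPKM in the group labelled Nfia knockout and 0.224 FPKM in its wild types. Of 12 apical junction and polarity genes, 0 passed in either comparison, with 1 at an unadjusted p under 0.05 in each. Of 5 intermediate filament genes, 2 were tested in the Nfib comparison and Synm, which encodes a filament partner of nestin and vimentin, rose (log2 fold 0.77, q = 0.00207, authors' deposited table), and 1 was tested in the Nfia comparison and did not pass. Of 6 glutamate and neutral amino acid transporter and glutamine synthetase genes, 1 was lower in the Nfib comparison and 1 higher in the Nfia comparison. Both calls were Slc1a2, the glutamate transporter of astrocytes, the log2 fold being -0.50 for Nfib (q = 0.0221) and 0.63 for Nfia (q = 0.00286, authors' deposited table). Of 4 fatty acid binding protein genes 2 were tested in each comparison and 0 passed, with 2 in the Nfib and 0 in the Nfia comparison at an unadjusted p under 0.05. Fabp5 had a log2 fold of -0.36 in the Nfib comparison (q = 0.152, authors' deposited table).

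Genes next to the members on the chromosome were looked up in RefSeq order, a choice made after the values had been seen. Among the nearest protein-coding genes on each side of the 10 members, the neighbour of Nes, Bcan, was the one called. Several of these neighbours were under 1 FPKM in all groups and were not tested. Over all tested genes, 5.39% were called in the Nfib and 3.79% in the Nfia comparison, and 0.384% were called lower in both. Bcan encodes the matrix proteoglycan brevican and stood at 1.40 FPKM in the Nfib knockouts and 9.39 FPKM in their wild types, and at 2.41 FPKM in the group labelled Nfia knockout and 4.57 FPKM in its wild types (log2 folds -2.72 and -0.93, q = 0.00207 and q = 0.00286, authors' deposited table). Nes itself passed in neither comparison. The neighbours of Mfge8 were Hapln3 and Abhd2, and neither passed the threshold. In the authors' deposited table Hapln3 had log2 folds of -0.45 for Nfib (q = 0.836) and 0.18 for Nfia (q = 0.999), and Abhd2 of 0.29 for Nfib (q = 0.430) and -0.35 for Nfia (q = 0.214).

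Markers of other cell types also differed between genotypes. For each list here and in the next paragraph, the share over all tested genes was 2.13% higher and 3.26% lower in the Nfib comparison. In the Nfia comparison it was 2.69% higher and 1.1% lower. An unadjusted p under 0.05 was held by 13.4% of tested genes in the Nfib and 10.1% in the Nfia comparison. Of 6 choroid plexus and ependyma genes, 4 were higher and 0 lower in the Nfib comparison, their summed level being 101 FPKM in the Nfib knockouts and 4.25 FPKM in their wild types, with Folr1 listed at 0 in those wild types. Ttr, the transthyretin gene of choroid plexus, made up 94.8 FPKM of the Nfib knockout sum and 0.346 FPKM in their wild types. In the Nfia comparison 1 of 2 tested was higher, the sums being 3.69 FPKM in the group labelled Nfia knockout and 2.39 FPKM in its wild types. Of 8 meninges and fibroblast genes, 6 were lower and 0 higher in the Nfib comparison, with sums of 13.9 FPKM in the knockouts and 20.9 FPKM in their wild types, and 0 of 5 tested passed in the Nfia comparison (0 at an unadjusted p under 0.05), with 12.6 FPKM in the group labelled Nfia knockout and 11.9 FPKM in its wild types. Bgn, which passed in neither comparison, made up 9.99 FPKM of the meninges sum in the Nfib knockouts and 9.57 FPKM in their wild types. Against the Nfia-line wild types, the Nfib median log2 fold of the meninges genes at 1 FPKM or more went from -1.33 to 0.23. That of the choroid plexus genes went from 2.79 to 2.23. Prom1, Pdpn and Mfge8 stand beside these choroid plexus and meninges differences in the Nfib line. The part of choroid plexus and meninges in their values was not tested.

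Ganglionic eminence markers gave 0 higher and 5 lower of 7 in the Nfib comparison, with sums of 43.7 FPKM in the knockouts and 76.2 FPKM in their wild types, and 3 higher and 0 lower of 7 in the Nfia comparison, with 73.8 FPKM in the group labelled Nfia knockout and 52.0 FPKM in its wild types. Hippocampal and cortical hem markers gave 0 higher and 2 lower of 6 tested in the Nfib comparison, with sums of 4.86 FPKM in the knockouts and 10.4 FPKM in their wild types, and 0 of 3 tested passed in the Nfia comparison (1 at an unadjusted p under 0.05), with 5.67 FPKM in the group labelled Nfia knockout and 5.29 FPKM in its wild types. Astrocyte markers gave 0 higher and 4 lower of 7 tested in the Nfib comparison, with sums of 22.8 FPKM in the knockouts and 41.3 FPKM in their wild types. In the Nfia comparison 1 was higher and 1 lower of 5 tested, with 28.5 FPKM in the group labelled Nfia knockout and 23.2 FPKM in its wild types. Intermediate progenitor markers gave 1 higher and 0 lower of 6 in the Nfib comparison and 0 higher and 3 lower of 6 in the Nfia comparison. Of 8 neuron, 8 endothelial and 5 microglia markers, 1 passed in the Nfib comparison, the endothelial junction gene Cldn5 (log2 fold -0.54, q = 0.0372, authors' deposited table), and 0 in the Nfia comparison, where 1 neuron marker and 0 of the others had an unadjusted p under 0.05. Some of these shifts depended on the wild types used. Against the Nfia-line wild types, the Nfib median log2 fold of astrocyte markers at 1 FPKM or more went from -1.01 to 0.0025. It went from -0.75 to -0.28 for ganglionic eminence markers and from -1.51 to -0.33 for hippocampal and hem markers. Against the Nfib-line wild types, the Nfia median of ganglionic eminence markers went from 0.66 to -0.011. The part of these cell types in the levels of the radial glia genes was not tested.

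**Figure D4:**
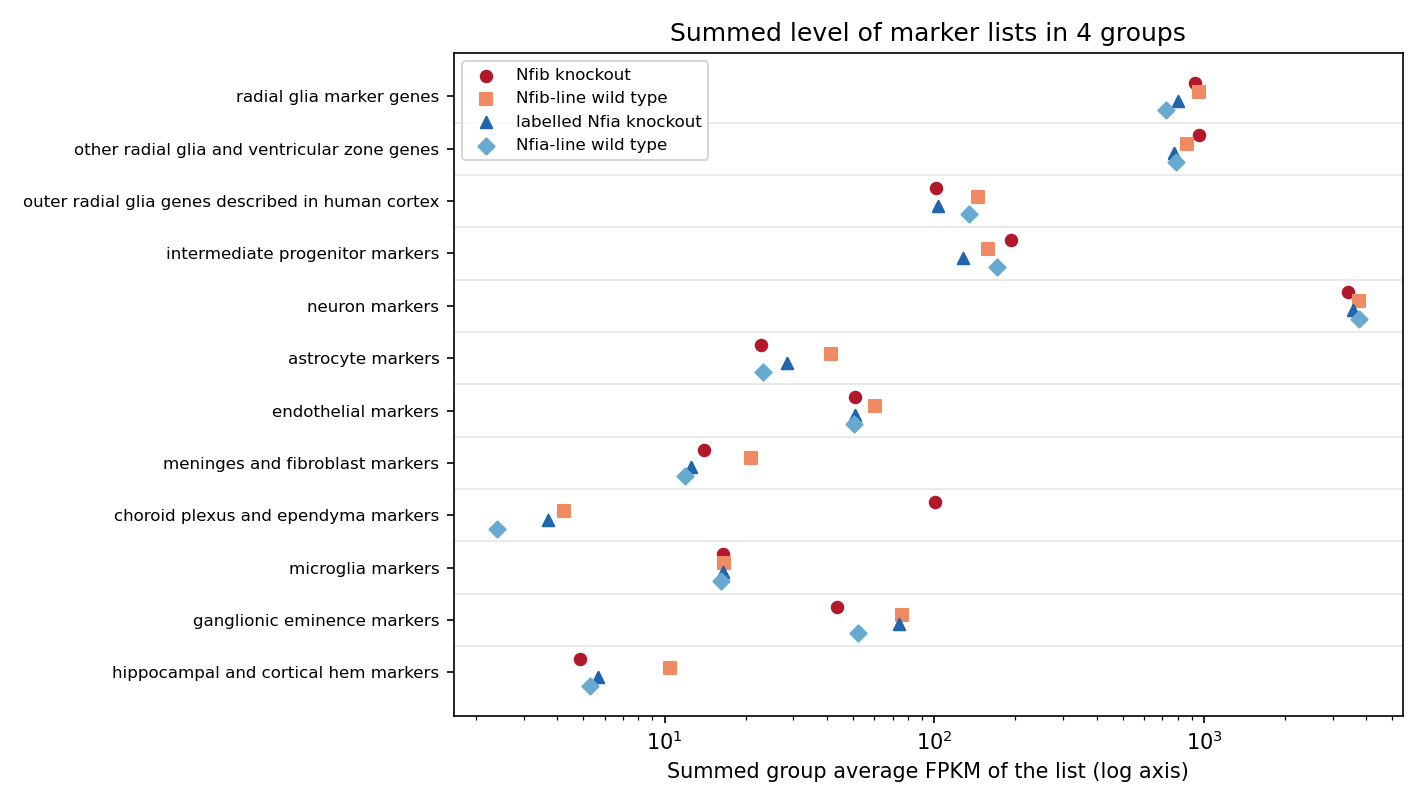
The plot gives the summed group average FPKM (log axis) of the 10 radial glia marker genes and of 11 other marker lists in the Nfib knockouts, their wild types, the group labelled Nfia knockout and its wild types, 1 point per group with no error bar. The radial glia sums lie between 721 and 960.2 FPKM, the neuron sums between 3434 and 3771 FPKM, and the choroid plexus sum of the Nfib knockouts at 101 FPKM stands apart from the 2.39 to 4.25 FPKM of the other groups. Fabp7 and Vim make up most of each radial glia sum, at 592 and 219 FPKM of the 960.2 FPKM in the Nfib-line wild types.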

How the data were processed

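Per the labels' protocols, RNA was isolated with Trizol and made into TruSeq libraries. Per the submitters' processing notes, TopHat2 (2.0.10), Cuffdiff (2.1.1), CASAVA (1.8.2) and Cufflinks were used, with build mm9. Whether counting used strand is not given in the sources used here, and reads of overlapping or antisense genes may be mixed. The authors deposited 1 table of FPKM averaged per group, per the file headers, with log2 folds, p-values and q-values for each line. Genes with p under 1 count as tested. The q-values lie within 7.3e-05 of Benjamini-Hochberg adjusted p-values over them, and calls are the authors' q under 0.05, without a further test across libraries. The p-values come from the authors' own test, with 2 wild-type libraries per line. The spread between libraries behind them is not shown and may be technical.

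The implied error of a fold is the fold over the normal deviate that its p-value corresponds to, and was never set under the running median of 501 genes of similar FPKM. The difference between lines was set against the combined error, with Benjamini-Hochberg adjustment over all genes. This script was tested on simulated data drawn from the normal model that the test assumes, which does not check the implied errors themselves. For other choices of wild types, log2(FPKM + 0.1) was used. Alternatives were another threshold, a filter at 1 FPKM, a fold minimum, pseudocounts, other wild types and centring.

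Members and the 17 other lists were chosen with earlier results of these data known. The rule for named genes took all members, the targeted genes, and up to 4 called genes per list by smallest p, or up to 2 as values only. Not all of these are named in the text. Cdh2, Itgb5, Slc1a2 and Gfap stand in more than 1 list. The software was Python 3.11.15 with scipy 1.17.1, pandas 2.3.3, numpy 2.4.6 and matplotlib 3.10.9.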

Additional observations from a re-analysis of the deposited data

How the results depend on the processing

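No paired analysis was possible because the table holds 1 average per group and no value per library, and for the same reason no library could be left out in turn. At q 0.01 the Nfib comparison called 1 radial glia gene (Mfge8), against 2 at q 0.05, and 437 genes in all, against 740, while the Nfia comparison called 320 genes, against 520. With a minimum change of 1.5-fold the Nfib comparison likewise called 1 member. Mfge8 was the member called in the Nfia comparison under each of these 3 alternatives. Adjustment over genes at 1 FPKM or more left 2 members in the Nfib comparison. The difference test called 0 members under both of its alternatives. Centring the folds, by 0.0012 and -0.0091, left all 20 member folds within their implied error, or within 0.1 for the untested Fam107a fold. With the other line's wild types 6 of 10 members kept the sign of their fold in each comparison, and no called fold changed sign. All 20 folds then moved beyond these limits, and with the wild types of both lines averaged 6 of 10 did in the Nfib and 7 of 10 in the Nfia comparison. A pseudocount of 1 left the others in place but moved Fam107a in the Nfib comparison to -0.26, and a pseudocount of 0.1 moved none beyond its error. Depth is unknown, and Fam107a, under 1 FPKM in all groups, is the member the low signal limits most.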
